A study of Mus musculus with 6 samples.

Results

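The regions described here were accessible stretches of the mouse genome that were called in the dentate gyrus of mice given a control virus and in none of the mice given cFos. They were chosen by calls alone. Each of the 6 peak lists was cut to its 23986 highest-scoring peaks on chromosomes 1 to 19 and X, touching or overlapping peaks were merged into 48217 regions, and a region counted as EYFP-leaning when 2 or 3 EYFP lists and no cFos list had a peak in it. That rule gave 2671 EYFP-leaning regions, 5.54% of all merged regions. Since the rule used these calls, the absence of cFos calls in them is a property of the choice and not a result.

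The libraries were ATAC-seq, in which the transposase Tn5 cuts and tags open DNA, made from the microdissected dentate gyrus of individual adult mice aged 8 weeks. Adeno-associated virus (AAV) expressed EYFP, a fluorescent protein used as the control, in 3 mice, and cFos in the other 3. The strain label read C57BL/6 for EYFP replicate 1 and ended in a different number for every other library, so strain was not used to group them. The promoter of the virus, the cells it reached, and whether cFos mice also received EYFP are not stated in the labels, and the tissue holds more than one cell type, so fewer cells with an open site and less opening per cell cannot be told apart. The full lists on these chromosomes held 29896, 44285 and 33026 peaks in EYFP replicates 1 to 3 and 26715, 23986 and 34690 in cFos replicates 1 to 3. Read depth was unknown, because the lists carry no read counts, and a region without a call was not shown to be closed.

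The dentate gyrus is the hippocampal field whose main neurons are granule cells. cFos, which neurons make for a short time after they are activated, is a subunit of AP-1. AP-1 is a dimeric transcription factor that binds mainly at enhancers, the regulatory elements away from gene starts. Accessible sites found in many libraries tend to include gene starts, while distal elements vary more between cell types and states. The coordinates below are those of mm9, 1-based, and the genes, motifs and base sequences at the regions were not analysed here.

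Most sites shared by EYFP libraries were also called with cFos. Of the 21854 regions called in 2 or 3 EYFP lists, 11600 (53.1%) were called in all 3 cFos lists and 2671 (12.2%) in none. The mirror choice gave nearly the same share with no call in the other group, with 2412 cFos-leaning regions, or 12.0% of the 20136 regions called in 2 or 3 cFos lists. The other shares differed. All 3 EYFP lists called 64.6% of those 20136 regions, and 1 EYFP list called 9.87%, where 1 cFos list called 15.8% of the 21854. These cFos-leaning regions were 5.0% of all merged regions. The 2 leaning classes therefore took up similar parts of equal-length lists. Which class was the larger changed with list length: half-length lists gave 975 EYFP-leaning and 1064 cFos-leaning regions, and the full lists, which are of unequal length, gave 5756 and 1984.

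Among the EYFP-leaning regions, 650 were called in all 3 EYFP lists (1.35% of merged regions) and 2021 in 2 of the 3. EYFP replicate 1 called 1965 of them, replicate 2 called 2092 and replicate 3 called 1935. The pairs of EYFP libraries contributed unequally but in the same range, with 736 regions for replicates 1 and 2, 706 for replicates 2 and 3, and 579 for replicates 1 and 3. A pair made of 1 EYFP and 1 cFos library was the sole caller of 312 to 407 regions over the 9 such pairs, below each of the EYFP pairs. Pairs of cFos libraries spread more widely, from 436 for replicates 1 and 2 to 966 for replicates 2 and 3.

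**Figure D1:**
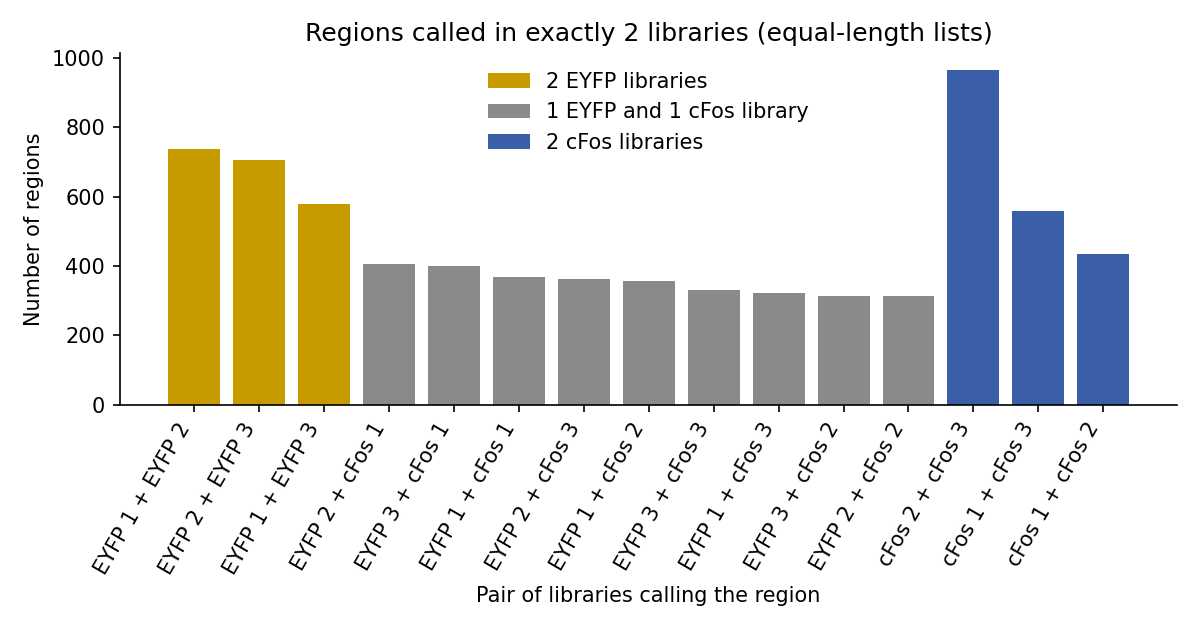
Number of merged regions (y axis) called in exactly the 2 libraries named on the x axis, on equal-length lists, with 1 bar per pair. The 3 EYFP pairs stand at 579 to 736 and the 9 mixed pairs at 312 to 407, while cFos replicates 2 and 3 share the tallest bar at 966.

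The same rule was applied to the 18 choices of 3 libraries that mixed the groups, called in 2 or 3 of the chosen libraries and in none of the others. These gave 1266 to 1829 regions with a median of 1535.5, against 2671 for the EYFP choice and 2412 for the cFos choice. The count of regions called in all 3 chosen libraries was 111 to 304 in mixed choices. The choices share libraries, so the counts are a description and carry no test. With an EYFP library left out the rule asks for both of the others, and the count was then 1358, 1230 and 1388 without EYFP replicates 1, 2 and 3.

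Calls were also read in libraries left out of a new choice of regions. These same calls had entered the choice of the members, so the reading is not separate support for them. Regions were picked again from 2 EYFP and 2 cFos libraries, called in both EYFP and in neither cFos list, and then looked up in the EYFP and the cFos library that had been left out. Over the 9 ways to leave out one of each, 1759 to 2219 regions were picked. The EYFP library left out called 52.0% to 60.6% of them and the cFos library left out called 29.8% to 38.3%. The EYFP value was the higher in 9 of 9, by 21.2 ± 4.59 percentage points (SD over the 9 ways, which share libraries). The largest gap, 29.0 points, came with EYFP replicate 2 and cFos replicate 2 left out, and the smallest, 16.0 points, with EYFP replicate 1 and cFos replicate 1.

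Part of that gap was also present in regions with no lean. Regions called in 1 EYFP and 1 cFos library of the 4 were called more often in the EYFP library left out too, in 9 of 9, by 7.55 ± 3.50 points (44.7% against 37.2% on average). Regions picked in both cFos and no EYFP library went the other way in 9 of 9, by -20.7 ± 5.15 points (24.3% in the EYFP and 45.1% in the cFos library left out). The gap for EYFP-picked regions was wider than that for regions picked in 1 of each in 9 of 9 ways. The 9 ways share libraries, so no p-value is given.

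**Figure D2:**
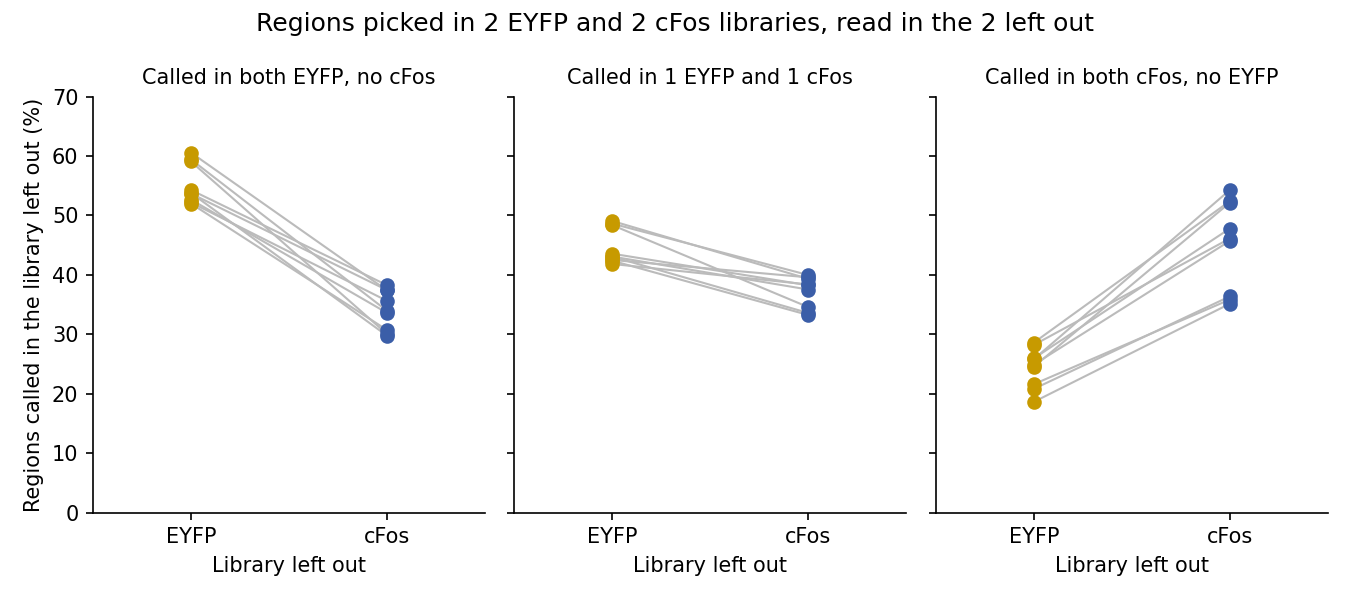
Share of regions (y axis, percent) called in the EYFP and in the cFos library left out (x axis), for regions picked in the other 2 EYFP and 2 cFos libraries, with 1 line for each of the 9 ways. Lines fall from 52.0 to 60.6% to 29.8 to 38.3% for regions picked in both EYFP lists, fall less for regions picked in 1 of each, and rise for regions picked in both cFos lists.

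The EYFP-leaning regions were weak peaks. Their scores, the authors' own value per peak, had medians of 82.4, 126 and 88.9 in EYFP replicates 1 to 3, where the whole equal-length lists had medians of 112, 183 and 124. As a rank within each list, from 0 for the lowest to 100 for the highest, the median member stood at 29.0, 24.5 and 28.2. Between 43.2% and 50.8% of the members called in a list lay in the lowest 25% of its ranks, at most 0.407% lay in the highest 25%, and the highest member of all stood at 89.0. Regions called in all 6 libraries had median ranks of 77.2 to 77.6 in the same EYFP lists. Regions called in a single library ranked lower than the members, at 15.2 to 16.8, and so did regions called in 1 EYFP and 1 cFos library, at 19.6 to 22.5. The EYFP-leaning regions thus fell between the single calls and the shared sites. The number of calls was not separated from the lean, since 2021 of the 2671 members were also called in 2 libraries only. The mirror class ranked higher in its own lists. Median ranks of cFos-leaning regions were 29.5, 37.3 and 32.8 in cFos replicates 1 to 3. In replicate 2, 4.64% of them lay in the highest 25%, and the highest stood at 97.6.

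Weak cFos peaks lay under some of them. Below the cut, 816 of the 2671 members (30.6%, 95% Wilson interval 28.8 to 32.3%) had a cFos peak in the full lists, and 1855 (69.4%) had none. Of all 10260 regions with no cFos call on equal lists, 19.9% had such a peak. Under the same rule, a weak peak of the libraries not chosen lay under 45.2% of the cFos-leaning regions and under 27.4% to 72.3% (median 50.2%) of the regions of the 18 mixed choices, and 17 of the 18 lay above the members' share. These shares also depend on how many peaks each list holds below the cut. The interval treats regions as independent, which they are not. Those peaks came from cFos replicate 3, with 696 members, and replicate 1, with 182, and 62 members had one in both. cFos replicate 2 could add none, because its whole list is the equal-length list. Without cFos replicate 3 in the choice and the count, the share with a weak cFos peak was 7.89%.

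The weak cFos peaks were like other peaks below the cut in score and width. Scores in replicate 3 ran from 50.06 to 68.22 with a median of 58.5, and those in replicate 1 from 50.04 to 54.1 with a median of 51.9. All peaks of these 2 lists below the cut had medians of 57.5 and 51.9, so the ones under members were close in score to the rest. Their median widths were 312 and 324.5 bp, where all peaks below the cut had medians of 308 and 317 bp, and they covered a median of 47.0% and 48.9% of the member. Weak cFos peaks were more frequent under the stronger members: 24.0% of the 668 with the lowest top EYFP rank had one, against 39.2% of the 668 with the highest (Wilson intervals 20.9 to 27.3% and 35.6 to 43.0%). They were also more frequent under members called in 3 of 3 EYFP lists (37.2%) than in 2 of 3 (28.4%), and under the 670 widest (35.1%) than the 661 narrowest (23.8%), where a wider region gives more room for an overlap. The stronger members were also wider, with median widths of 579.5 bp at the lowest and 733.5 bp at the highest top ranks. Members called in 3 of 3 had a median of 712 bp and those in 2 of 3 had 622 bp. Rank and width were not separated.

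List length sets how many weak peaks can be found, so the lists were also lengthened by the same number of peaks. With 2729 peaks added, the length of the cFos replicate 1 list, 6.81% of members gained a peak in cFos replicate 1 and 7.34% in cFos replicate 3. Over all merged regions a library had not called, the gain was 4.98% in cFos replicate 1 and 5.93% in replicate 3. Members called in 2 of 3 EYFP lists gained a peak in the remaining EYFP library more often, at 11.9%, 16.2% and 11.5% for replicates 1 to 3, where all uncalled regions gained 5.77%, 7.21% and 5.69%. For regions called in 1 EYFP and 1 cFos library the gains were 8.60%, 12.8% and 9.06% in the EYFP libraries and 7.40% and 7.87% in cFos replicates 1 and 3. Under members called in 2 of 3 EYFP lists only, the gains in cFos replicates 1 and 3 were 6.28% and 6.68%. At this length, the cFos gain under EYFP-leaning regions was near but below that under regions with no lean. The EYFP gain was above that under regions with no lean in each of the 3 libraries. Members were chosen for EYFP calls and for the lack of cFos calls in these same lists. The gains are therefore a description and not separate support for the lean. In the mirror class, cFos-leaning regions called in 2 of 3 cFos lists gained 3.93% in cFos replicate 1 and 10.6% in cFos replicate 3.

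In the EYFP libraries, other lengths gave the same direction, by amounts that differed with length and library. At both 2729 and 5910 added peaks, the Wilson intervals of members and of regions with no lean overlapped in every EYFP library. Each of these intervals counts the regions of 1 library as separate draws and holds no variation between animals. Whether intervals overlap or not therefore decides nothing about the groups. With 5910 peaks added, the length of the EYFP replicate 1 list, EYFP replicates 1 to 3 gained 21.0%, 27.5% and 22.0% of the members they had not called and 18.6%, 26.6% and 19.1% of the regions called in 1 EYFP and 1 cFos library, so that in replicate 2 the values lay within each other's intervals (24.0 to 31.2% and 24.8 to 28.5%). With 9040 peaks added, the length of the EYFP replicate 3 list, EYFP replicates 2 and 3 gained 38.9% and 30.8% of the members they had not called, and cFos replicate 3 gained 22.8%. Regions called in 1 EYFP and 1 cFos library gained 35.3%, 25.5% and 22.5% in those 3 libraries, and all uncalled regions 20.6%, 16.4% and 17.0%. In cFos replicate 3, the gain of all members was below that of regions with no lean at 5910 added peaks (15.6% against 15.9%). At 9040 it was slightly above, as at 10704 (26.1% against 25.4%). Members called in 2 of 3 EYFP lists stayed below, with 20.6% at 9040 and 24.0% at 10704. At the far end, EYFP replicate 2, the longest list, had a peak in 378 of the 579 members it had not called on equal lists, or 65.3%, against 58.9% of regions called in 1 EYFP and 1 cFos library and 36.5% of all regions it had not called.

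**Figure D3:**
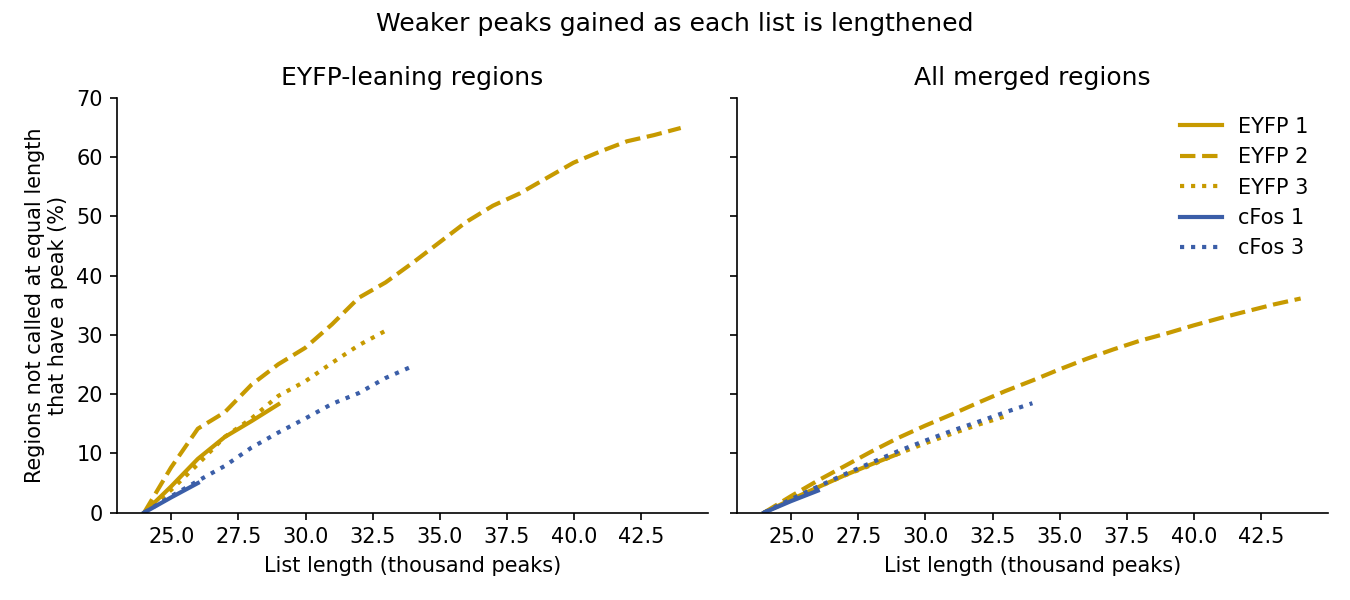
Share of regions not called on equal-length lists that have a peak (y axis, percent) as a library's list is lengthened in steps (x axis, in 1000 peaks), for EYFP-leaning regions on the left and all merged regions on the right, with 1 line per library and no line for cFos replicate 2, whose list cannot be lengthened. On the left the EYFP lines, which start from members called in the other 2 EYFP lists, lie above the cFos lines at each shared length past the start, while on the right EYFP replicates 1 and 3 lie close to the cFos lines and EYFP replicate 2 above them.

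The rule has a threshold, the lowest score kept, which was 54.13, 50 and 68.22 in cFos replicates 1 to 3 and 60, 95.66 and 65.66 in EYFP replicates 1 to 3. Just inside lay a region at chr12:16625491-16626146, with scores of 88.06 and 130.53 in EYFP replicates 1 and 2 and a peak of 68.22 in cFos replicate 3 that lost the tie at the cut. At chr11:43423222-43424120, EYFP replicates 1 and 3 scored 104.59 and 89.85 and cFos replicate 3 scored 68.21. At chr7:137733642-137734038, EYFP replicates 2 and 3 scored 122.51 and 79.36 and cFos replicate 1 scored 54.1. The cFos peaks of these regions differed from the cut by at most 0.03 in score. The strongest weak cFos peaks lay in the same narrow band below the cut of replicate 3: members at chr14:101751378-101752000, chr12:61468117-61468676 and chr13:38254569-38255201 had cFos replicate 3 peaks of 68.19, 68.18 and 68.18, beside EYFP replicate 2 peaks of 176.51, 162.53 and 126.63.

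Just outside lay 3 regions whose only cFos call scored 54.14, in replicate 1. The one at chr3:143171144-143171930 scored 129.57 and 118.94 in EYFP replicates 1 and 2. The one at chr13:32583898-32584861 scored 69.76 and 103.63 in the same libraries, and the one at chr13:114199989-114200515 scored 97.7, 153.16 and 66.56 in replicates 1 to 3. EYFP scores on both sides of the threshold overlapped. In all, 3447 regions were called in 2 or 3 EYFP lists and 1 cFos list, which is more than the number of members.

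The members that stood highest in all 3 EYFP lists, with no cFos peak even in the full lists, had ranks from the middle of the lists upward. Of the 10 with the highest lowest-of-3 rank, the first lay at chr4:25817261-25818197. It scored 155.54, 257.59 and 153.15 in EYFP replicates 1 to 3, at ranks of 66.4, 67.8 and 60.5, and its peaks were 753, 935 and 692 bp wide. A region at chr3:56688790-56689561 scored 130.75, 224.94 and 165.13. Their ranks were above the member medians of 24.5 to 29.0 and below the medians of the sites that all 6 libraries share.

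Others of the 10 were less even between libraries. A region at chr2:49685598-49686331 scored 236.44, 260.93 and 123.74, so that its rank was 81.7 in EYFP replicate 1 and 49.8 in replicate 3, and its peaks were 565, 652 and 354 bp wide. A region at chr9:35228438-35229705 scored 124.07, 191.65 and 193.9 and was 1268 bp wide, the widest of the 10. A region at chr8:105531868-105532559 scored 136.55, 238.96 and 122.09 and lay 11.3 kb from a site called in all 6 libraries, the closest of the 10. The farthest from such a site, at 644 kb, was chrX:95440224-95440908, with scores of 123.26, 264.93 and 164.08. In the remaining 4 of the 10, the lowest of the 3 scores was 145.74 at chr13:82957111-82957987, 127.35 at chr5:136674404-136675284, 116.17 at chr2:51492180-51493361 and 128.1 at chr12:59915079-59916272. Ranks in these 4 ran from 51.8 in EYFP replicate 3 at the chromosome 12 region to 72.9 in the same library at the chromosome 2 region.

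Members were of middle width. The merged EYFP-leaning regions had a median of 646 bp (95% order-statistic interval 639 to 652 bp), with 10% below 493 bp and 10% above 961 bp, and together they covered 1870 kb. Regions called in 1 EYFP and 1 cFos library had a median of 557.5 bp, cFos-leaning regions 494.5 bp and regions called in all 6 libraries 1174 bp. Mixed choices of 3 libraries gave medians of 515 to 631 bp, all below the 646 bp of the EYFP choice. Over the whole equal-length lists, too, EYFP peaks were the wider, with medians of 626, 747 and 640 bp against 485, 479 and 520 bp in cFos replicates 1 to 3, and the part of that in the members' width was not tested.

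Within a library, the width of members was close to that of other peaks of similar scores. Median peak widths in members were 522, 589 and 523 bp in EYFP replicates 1 to 3. The other peaks of each library whose scores lay between the 25th and 75th percentile of the members' scores had medians of 534, 608 and 531 bp. The members' medians also include scores outside that band, so members and other peaks were not matched exactly in score. Members were slightly the narrower in each library, by far less than their own range from the 10th to the 90th percentile, which was 370 to 735 bp in replicate 1.

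**Figure D4:**
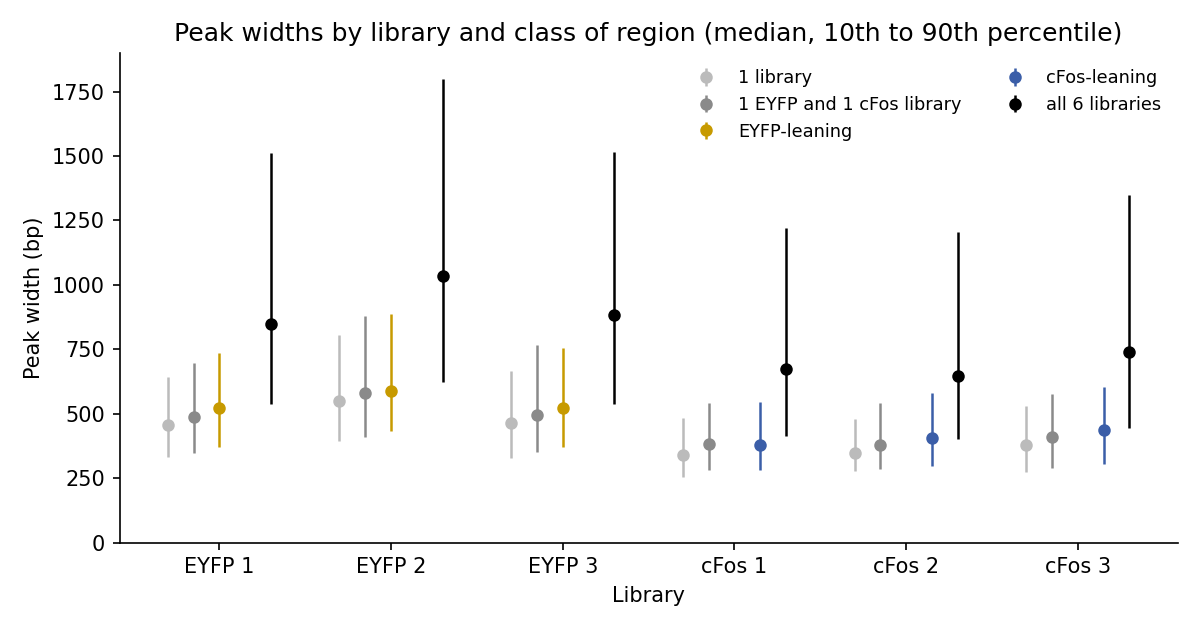
Peak width (y axis, bp) in each library (x axis) by class of region, with points for medians and bars from the 10th to the 90th percentile of peaks. EYFP-leaning members (522, 589 and 523 bp) sit just above single-library regions and far below sites called in all 6 libraries, and each class called in both groups is narrower in the cFos libraries.

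A few members were broad. The widest, chr8:56203804-56209131, was 5328 bp long. It scored 162.95 in EYFP replicate 2 and 361.09 in replicate 3, with single peaks of 5267 and 5328 bp, and no peak was called in EYFP replicate 1 or in any cFos library in the full lists. The missing call in EYFP replicate 1 means that the EYFP libraries differed among themselves in calling it. The next, chrX:121310466-121314852, was 4387 bp long, scored 189.63, 122.98 and 156.77 in EYFP replicates 1 to 3, and had a weak peak of 1094 bp in cFos replicate 1, at 53.46. The third, chr18:35989086-35992262, was 3177 bp long because of 1 peak of 3162 bp in EYFP replicate 2, while replicates 1 and 3 had peaks of 883 and 947 bp.

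The remaining broad regions had weak cFos peaks too. The region chr16:9993541-9995985, 2445 bp long, scored 99.74 and 140.45 in EYFP replicates 1 and 2 and 52.88 in cFos replicate 1. The region chr10:41654131-41656489, 2359 bp long, scored 95.99, 109.18 and 84.7 in EYFP replicates 1 to 3 and 64.69 in cFos replicate 3. Of the 5 widest members, 4 therefore had a cFos peak below the cut.

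Few EYFP-leaning regions lay right beside a shared site, as was so in every class of region. Touching or overlapping peaks had been merged, and the part of that in these shares was not tested. Their median distance to the nearest region called in all 6 libraries was 75.4 kb (95% order-statistic interval 71.5 to 80.4 kb), and 12 of them (0.449%) lay within 1 kb of one. Within 10 kb there were 174, or 6.51%, and within 50 kb 37.9%. Over all merged regions the median was 66.9 kb, with 0.711% within 1 kb, 8.49% within 10 kb and 41.2% within 50 kb. cFos-leaning regions had a median of 71.2 kb with 27 regions (1.12%) within 1 kb, and regions called in 1 EYFP and 1 cFos library had a median of 69.8 kb. Mixed choices of 3 libraries ranged from 62.8 to 80.7 kb, which takes in the EYFP value. A cFos peak of the equal-length lists lay within 1 kb of 92 members (3.44%).

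**Figure D5:**
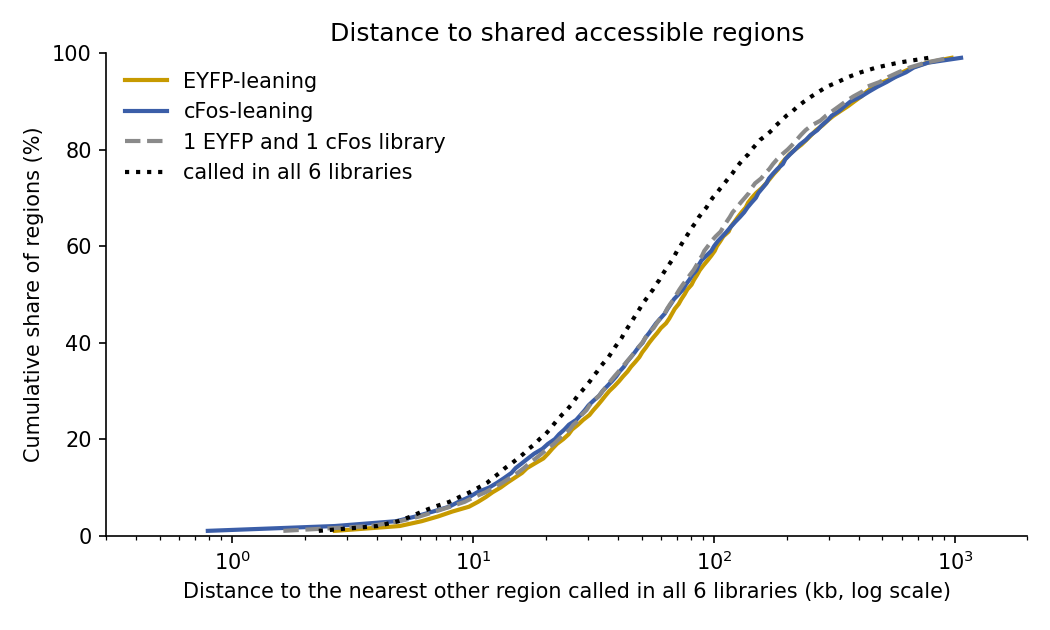
Cumulative share of regions (y axis, percent) by distance to the nearest other region called in all 6 libraries (x axis, kb, log scale), for 4 classes of region. The curves of EYFP-leaning and cFos-leaning regions and of regions called in 1 of each nearly coincide (medians 75.4, 71.2 and 69.8 kb), while sites called in all 6 libraries lie closer to one another (53.9 kb).

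Of the 5 most isolated members, 3 were on chromosome X. A region at chrX:86151350-86151852 lay 3128 kb from any site shared by all 6 libraries and was called in all 3 EYFP lists, with scores of 145.75, 158.05 and 90.76. The next, chrX:87864668-87865032, lay 3012 kb away and scored 134.36 and 66.85 in EYFP replicates 2 and 3. Neither had a cFos peak in the full lists. Then came chr5:132645646-132646417, at 1912 kb, with scores of 86.76, 177.02 and 110.92 and a weak peak of 53.9 in cFos replicate 1. The other two, chrX:128102542-128103042 and chr6:75160049-75160577, were called in 2 EYFP lists each and had a weaker peak in the third, at 53.19 in EYFP replicate 1 and 60.99 in EYFP replicate 3.

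Most members had no other member close by. When members no more than 50 kb apart were chained, 2307 of the 2671 (86.4%) stood alone, 154 chains held 2 members, 16 held 3 and 2 held 4. The cFos-leaning regions gave 86.5% alone and 5 chains of 4. Another member lay within 50 kb of 13.6% of members, and a member lay within 50 kb of 13.2% of all merged regions. In the mixed choices of 3 libraries, which hold fewer regions, 7.19% to 10.9% had another of their own kind within 50 kb. For 170 members (6.36%) the nearest other merged region was also EYFP-leaning. The nearest other region was EYFP-leaning for 5.45% of all merged regions, 4.85% of cFos-leaning regions and 5.54% of regions called in 1 EYFP and 1 cFos library. The cFos-leaning regions, which were fewer than the members, had a nearest region of their own kind in 6.43%. A nearest region of the own kind was therefore about as frequent in both leaning classes. Within mixed choices of 3 libraries, 2.61% to 4.34% had a nearest region of their own kind, where such regions made up 2.63% to 3.79% of all regions. The share moved with the number of members when a library was left out. It was 3.39%, 3.98% and 3.96% without EYFP replicates 1, 2 and 3, when members were 2.98%, 2.65% and 3.05% of regions. It was 9.08%, 9.85% and 9.55% without cFos replicates 1, 2 and 3, when they were 8.97%, 8.25% and 8.54%.

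The 2 chains of 4 members, and the first of the 16 chains of 3 in order of chromosome number, are described here. On chromosome 3, 4 members lay in 71.8 kb from 103584280 to 103656043, among 7 merged regions of which 2 were called in all 6 libraries. Its last member, chr3:103654785-103656043, was the one called in all 3 EYFP lists, with scores of 85.27, 139.75 and 197.3, and it also had weak peaks of 51.47 and 59.49 in cFos replicates 1 and 3. On chromosome 6, 4 members lay in 105 kb from 54922177 to 55027309, and 2 of them were called in 3 of 3 EYFP lists, with scores of 109.03, 171.65 and 82.21 at chr6:54922177-54922842 and of 76.36, 107.79 and 172.6 at chr6:55011903-55012922. In both chains, regions shared by all 6 libraries and EYFP-leaning regions lay side by side, and no cFos-leaning region lay among them.

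The chain of 3, on chromosome 2 from 62172102 to 62227362, held 3 members in 55.3 kb with no shared site and no weak cFos peak under any of them. Its middle member, chr2:62179587-62180391, scored 65.55, 163.79 and 87.7 in EYFP replicates 1 to 3. The members on either side were called in EYFP replicates 2 and 3 only, with scores of 142.5 and 95.72 at chr2:62172102-62172979 and of 139.08 and 139.15 at chr2:62226817-62227362. One cFos-leaning region lay between them, so that regions of both leanings occurred within the same stretch.

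Every chromosome held members. They made up 3.87% of the merged regions of chromosome 9, the lowest share, and 7.08% of those of chromosome 14, the highest, with 5.78% on chromosome X. On chromosome 3 178 of 3560 merged regions were EYFP-leaning and 232 cFos-leaning, and on chromosome 14 the shares were 7.08% and 5.17%. No test was made of these shares, because neighbouring regions are not replicates.

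Shared sites close to members ranked alike in both groups. The 1278 regions called in all 6 libraries that had an EYFP-leaning region within 50 kb stood at median ranks, among all shared regions, of 46.4, 47.2 and 47.6 in EYFP replicates 1 to 3 and of 46.1, 48.1 and 46.9 in cFos replicates 1 to 3. The groups overlapped. The 8188 shared regions with no leaning region of either kind within 50 kb stood at 50.4 to 51.0 in the 6 libraries. The 1228 shared regions with a cFos-leaning region within 50 kb stood at 47.0 to 49.4, also below those with neither.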

How the data were processed

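ATAC-seq libraries of 3 EYFP and 3 cFos mice were grouped by their titles. Per the submitters' processing notes, alignment used Bowtie2 and the mm9 build. The authors deposited 1 peak list per library, without pooling, with names that begin with MACS, and a score per peak from 50 to 3100. For the score's meaning, the calling threshold and any control, nothing is given in the sources used here. Scores were used to rank and cut peaks within a list. Peaks on chromosome Y were left out by the rule. Overlap meant at least 1 bp, and distances run from edge to edge. The precision is set by 3 animals per group.

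The members, lists and measures were chosen with earlier results of these data known. Named were the 10 members with the highest lowest-of-3 rank and no cFos peak, the 5 widest, the 5 most isolated, those of the 3 largest chains (ties by position), and 3 regions on each side of the threshold. So were the 5 with the strongest weak cFos peak, of which 2 are also just inside the threshold. No test across groups was run, since the rule used that contrast. Alternatives were half-length and full lists, a stricter score, a call only where 50% of the region is covered, gaps of 200 bp bridged, peaks of 400 bp, and each library left out. The counting was tested on simulated data. Versions were Python 3.11.15, scipy 1.17.1, pandas 2.3.3, matplotlib 3.10.9 and numpy 2.4.6.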

Additional observations from a re-analysis of the deposited data

Results flagged for a closer look

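Chromosome Y lay outside the rule, and its peak lists differed between the groups. Every cFos library had at least 49 peaks there, above every EYFP library, which had 30 to 36. On full lists its 79 merged regions held 0 EYFP-leaning and 9 cFos-leaning regions. Over the chromosomes that the rule used, the full lists gave 70575 merged regions. Of these, 5756 (8.16%) were EYFP-leaning and 1984 were cFos-leaning.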

How the results depend on the processing

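The number of EYFP-leaning regions was 975 on half-length lists, 873 above the pooled median score of 93.41, 5756 on full lists and 4534 when a library had to cover 50% of a region, a rule under which a narrow cFos peak can count as no call. In the same order without the full lists, which leave no weaker peaks, 90.5%, 93.9% and 61.0% of members had a weak cFos peak. The median distance to a site called in all libraries was 136 kb on half-length lists, 154 kb above the stricter score, 66.2 kb on full lists and 140 kb with 50% coverage. The share whose nearest region was also a member was 4.72%, 5.15%, 9.38% and 9.40%, where members were 4.70%, 4.62%, 8.16% and 9.40% of regions. The median width was 799, 831, 570 and 757 bp. The gap in libraries left out was 28.3 points on full lists and 31.5 points with 50% coverage, and it stayed positive under the 6 alternatives run for it. With 1 library left out, the count ran from 1230 to 3998, the weak cFos share from 7.89% to 33.2%, the distance from 66.3 to 76.7 kb, the nearest-region share from 3.39% to 9.85% and the width from 615 to 662 bp. Merging across 200 bp, for all 6 results, and peaks of 400 bp, for all but the width, kept the count within 1.5 times and the other values within their intervals. The cause of each shift was not tested. No paired analysis was possible because no result came from a test between groups. Read depth was not known, so how far it limits the calls could not be given.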
